A study of Homo sapiens with 6 samples.

Results

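The AP-1 transcription factor genes examined here were 10 genes of the FOS, JUN, MAF and BATF families, taken by symbol from the 54259 genes listed in the count table. They were FOS, FOSB, FOSL1, FOSL2, JUN, JUNB, JUND, MAFF, MAFK and BATF3, and all 10 were listed. The MAF and BATF families are covered only in part, and MAFG, MAFA, BATF and BATF2 are given below among the bZIP partners. RNA-Sequence was performed on MDA-MB-231 cells, an established human breast cancer line of mesenchymal character. According to the labels, 3 libraries came from cells with a short hairpin RNA against brachyury (MDA-MB-231 shBry), and 3 came from cells with a control hairpin (MDA-MB-231 shNC). The comparison asks which AP-1 genes differ between brachyury-knockdown and control cells. Each group is a single hairpin line as far as the labels tell, neither the number of hairpins or clones nor the time after transduction is given, and the labels do not say whether replicates were separate cultures. The study's general remark on independent repeats is not tied to these libraries, so that p-values measure only the spread between these libraries.

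Between 19319411 and 22985371 reads were counted per library, and 15277 genes passed the expression filter, which keeps genes with about 10 counts or more in at least 3 libraries. All 10 AP-1 genes passed it, with the fewest counts for FOSB (34 in shNC replicate 1). Brachyury itself, listed under the symbol T, had 0 counts in all 6 libraries. The paper describes brachyury as overexpressed in this line, whereas the shNC libraries too held no counts for it. A count of 0 allows up to 3 counts, or 0.162 counts per 1000000 (CPM) in the smallest library, so the knockdown could not be checked. These limits and intervals cover counting error or the spread between libraries only. The series' own design text calls the RNA pericardial, whereas the sample labels name a breast cancer line. The mesenchymal markers VIM, CD44, AXL and MSN summed to between 7333 and 7686 CPM in shNC and between 6425 and 6659 CPM in shBry. They did not move together, with log2 fold changes of -0.27 for VIM, -0.47 for MSN, 0.34 for CD44 and 0.33 for AXL, and none was called. Of the other cell type lists, no leukocyte marker had more than 3 counts in any library, and PTPRC and TYROBP were at 0 throughout. The 6 fibroblast markers summed to between 30.2 and 35.6 CPM in shNC and between 31.7 and 35.3 CPM in shBry. COL1A1 and PDGFRB made up most of these sums and were not called, and DCN was at 0. The 6 mesothelial and cardiac markers summed to between 35.4 and 39 CPM in shNC and between 44.9 and 50.6 CPM in shBry, mostly from MSLN, with MYH6 at 0. Of these, CALB2 was called lower in shBry, with 11.1 CPM in shNC replicate 3 and at most 1.37 CPM in every other library. The 5 luminal markers, of which CDH1, ESR1 and PGR were near 0, summed to between 10.4 and 13.6 CPM in shNC and between 16.3 and 18.9 CPM in shBry. GATA3 made up most of these sums and was not called. EPCAM was called higher (a log2 fold change of 1.47, edgeR adjusted p = 3.4e-04), and the part of these cell markers in the results below was not tested.

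AP-1 is a family of basic leucine zipper (bZIP) factors that bind DNA as dimers. JUN proteins pair with each other or with FOS proteins, whereas FOS proteins bind DNA only with a partner. FOS, FOSB, JUN and JUNB are immediate-early genes, whose transcription rises within minutes of growth factor or stress signals that run through the MAP kinases. FOSL1 and FOSL2 encode FRA1 and FRA2, which lack the C-terminal activation domain of FOS, and FRA1 is known as the prominent FOS protein of mesenchymal breast cancer cells. The small MAF proteins MAFF and MAFK carry no activation domain of their own and act with CNC partners such as NRF2, and BATF3 is likewise a short bZIP protein that pairs with JUN proteins.

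The promoters of several of these genes are known to carry cyclic AMP response elements (CRE) or AP-1-like sites through which bZIP factors, ATF and JUN among them, act on their own genes. RefSeq promoter sequences on GRCh38.p14 were matched by symbol for 7 of the 10 genes, and FOSL1, MAFK and BATF3 were not matched. The 120 bases before the annotated start are shown 5′ to 3′ because the sites of these genes can be compared by their distance from it. Capitals mark the CRE core TGACGT (or its reverse complement), the full CRE TGACGTCA, and TGACATCA, the AP-1-like site of the JUN promoter.
JUN: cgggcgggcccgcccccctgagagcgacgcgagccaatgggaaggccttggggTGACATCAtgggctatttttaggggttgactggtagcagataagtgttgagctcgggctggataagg
JUNB: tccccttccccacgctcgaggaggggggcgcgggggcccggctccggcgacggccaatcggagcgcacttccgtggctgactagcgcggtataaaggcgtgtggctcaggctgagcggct
JUND: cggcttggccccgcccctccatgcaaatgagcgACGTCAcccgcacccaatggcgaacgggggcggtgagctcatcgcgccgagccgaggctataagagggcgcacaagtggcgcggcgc
FOS: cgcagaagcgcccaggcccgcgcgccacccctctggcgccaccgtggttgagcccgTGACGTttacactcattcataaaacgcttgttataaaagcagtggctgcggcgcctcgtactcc
FOSB: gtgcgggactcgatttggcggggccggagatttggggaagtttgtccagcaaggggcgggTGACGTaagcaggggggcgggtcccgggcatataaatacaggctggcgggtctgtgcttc
FOSL2: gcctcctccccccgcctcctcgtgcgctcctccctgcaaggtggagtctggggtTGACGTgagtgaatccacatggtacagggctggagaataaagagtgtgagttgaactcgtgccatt
MAFF: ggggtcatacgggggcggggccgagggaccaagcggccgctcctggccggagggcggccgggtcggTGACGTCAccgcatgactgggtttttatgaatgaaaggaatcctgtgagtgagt
These stretches are JUN (chr1:58784048-58784167, minus strand), JUNB (chr19:12791366-12791485, plus strand), JUND (chr19:18281623-18281742, minus strand), FOS (chr14:75278708-75278827, plus strand), FOSB (chr19:45467876-45467995, plus strand), FOSL2 (chr2:28392738-28392857, plus strand) and the first of the pair of listed starts of MAFF (chr22:38201874-38201993, plus strand).

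The whole windows of 300 bases (250 before to 50 after the start) were read on both strands, 8 in all with the pair for MAFF. The CRE core TGACGT was present in 5 of these 8 windows, in 5 of the 7 genes, against 7.98% of 35116 promoters of that length. It began 64 bases before the start in FOS, 60 in FOSB, 66 in FOSL2 and 87 in JUND. In MAFF it was part of a full TGACGTCA that began 54 bases before the start. JUND also had a full TGACGTCA 200 bases before its start. The full CRE contains the core, so these matches overlap, and it was present in 1.85% of all promoters. JUN had TGACATCA 67 bases before its start (present in 2.61% of promoters), and JUNB had none of these letters in its window. The AP-1 site TGANTCA was found in FOSL2 alone, just after the start, against 7.71% of promoters. The T-box site GGTGTGA (3.45% of promoters) and the CArG box (1.29%) were found in none of the matched windows. TGACGT and TGACATCA were added to the search after the sequences had been read, so setting them beside all promoters is no test. Such matches are letters only, and binding was not measured here.

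Of the 10 AP-1 genes, 8 were higher in MDA-MB-231 shBry than in MDA-MB-231 shNC cells and none was lower. JUNB and MAFF rose most, by 3.88-fold and 3.49-fold, followed by FOSB (2.83-fold), MAFK (2.35-fold), JUN (2.14-fold), FOS (2.10-fold), FOSL2 (2.0-fold) and BATF3 (1.55-fold). FOSL1 and JUND did not pass the test. A gene was called at an adjusted p below 0.05 in edgeR's quasi-likelihood test and a fold change above 1.5. By this rule 32.4% of all tested genes were called and 17.1% were called higher in shBry, so that the 8 of 10 stand beside a background of 17.1%. The 10 genes were chosen with earlier results of these data known, so this contrast is no test of the family. The 3 shBry values lay above the 3 shNC values for the same 8 genes, as they did for 30.6% of all tested genes. The median log2 fold change was 1.08 over the 10 genes and 0.033 over all tested genes.

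**Figure D1:**
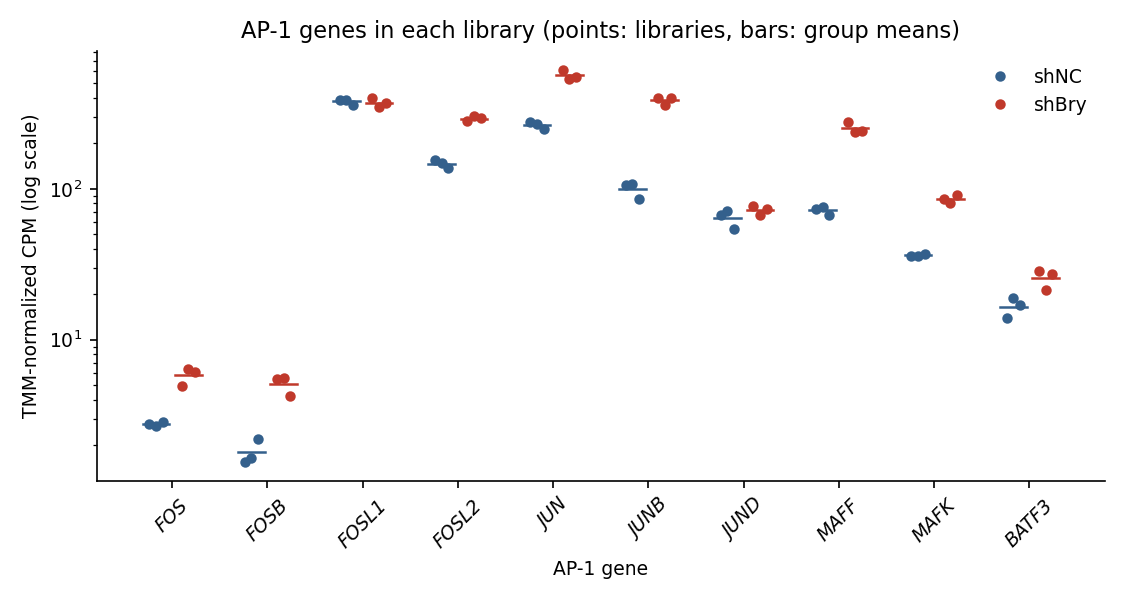
TMM-normalized CPM on a log axis for the 10 AP-1 genes, with a point for each of the 3 shNC (blue) and 3 shBry (red) libraries and a bar at each group mean. The groups are apart for 8 genes and overlap for FOSL1 and JUND.

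JUN and JUNB were called higher among the 3 JUN family genes, and JUND was not called. JUN (chr1:58780788-58784327 in GENCODE 29 on GRCh38, minus strand, a gene of 1 exon) encodes the founding AP-1 subunit and the main target of the JNK kinases. It had 275, 269.8 and 248 CPM in shNC replicates 1, 2 and 3 and 609.5, 536 and 548 CPM in shBry replicates 1, 2 and 3, in CPM scaled by TMM, the library size correction of edgeR. Each shBry library was thus well above each shNC library, with a log2 fold change of 1.09 (95% interval 0.92 to 1.27, edgeR adjusted p = 8.7e-08). JUNB (chr19:12791496-12793315, 1 exon), which encodes a weaker activator that can oppose JUN on some genes, had 106, 107 and 85.2 CPM in shNC replicates 1, 2 and 3 and 398, 359 and 399 CPM in shBry replicates 1, 2 and 3. The groups lay far apart, with the highest shNC value below the lowest shBry value, and JUNB had a log2 fold change of 1.96 (95% interval 1.75 to 2.17, edgeR adjusted p = 1.5e-09), higher than 98.1% of tested genes. JUND (chr19:18279760-18281622, 1 exon), the JUN gene that resting cells also express, had 67.4, 71.1 and 53.9 CPM in shNC replicates 1, 2 and 3 and 77, 67 and 73 CPM in shBry replicates 1, 2 and 3. Its groups overlapped, and its log2 fold change of 0.17 had a 95% interval of -0.06 to 0.40 (adjusted p = 0.19 with edgeR), which leaves out a rise of 1.5-fold but not a small one.

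JUNB overlaps the gene HOOK2 on the opposite strand over 14.2% of its exon bases. HOOK2 had 19.3 ± 1.37 CPM in shNC and 18.8 ± 1.28 CPM in shBry (SD, n = 3), with a log2 fold change of -0.04 (edgeR adjusted p = 0.81). Its level was therefore far below that of JUNB in both groups. JUN and JUND had no exon overlap with another gene.

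In the FOS family the most abundant gene, FOSL1, was the one that did not pass the test. FOSL1 (chr11:65892049-65900573, minus strand) had 390.2, 389 and 361 CPM in shNC replicates 1, 2 and 3 and 397, 350.5 and 369.7 CPM in shBry replicates 1, 2 and 3. The shBry values lay on both sides of the shNC values, and its log2 fold change of -0.03 had a 95% interval of -0.20 to 0.14 (adjusted p = 0.77 with edgeR), so that a change beyond 1.10-fold upward or 0.871-fold downward lay outside the interval. FOSL2 (chr2:28392448-28417312, plus strand) had 154, 148 and 136 CPM in shNC replicates 1, 2 and 3 and 279.9, 303 and 293 CPM in shBry replicates 1, 2 and 3. These groups were apart, with a log2 fold change of 1.0 (95% interval 0.83 to 1.17, edgeR adjusted p = 1.6e-07) and therefore a fold change just under 2. FOSL1 and FOSL2 are close relatives in the protein they encode, but in these libraries FOSL2 was called and FOSL1 was not.

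FOS (chr14:75278774-75282230, plus strand), the prototype immediate-early gene, was low in both groups, with 2.75, 2.69 and 2.85 CPM in shNC replicates 1, 2 and 3 and 4.90, 6.41 and 6.07 CPM in shBry replicates 1, 2 and 3. Behind these values were 60, 57 and 57 counts in shNC and 91, 152 and 137 counts in shBry. FOS was higher in each shBry library, with a log2 fold change of 1.07 (95% interval 0.66 to 1.47, edgeR adjusted p = 2.9e-04). FOSB (chr19:45467995-45475179, plus strand), its nearest relative in domain structure, had 1.56, 1.65 and 2.20 CPM in shNC replicates 1, 2 and 3 and 5.49, 5.61 and 4.26 CPM in shBry replicates 1, 2 and 3, from between 34 and 133 counts per library. It was higher in each shBry library too, with a log2 fold change of 1.50 (95% interval 1.03 to 1.98, edgeR adjusted p = 6e-05). Both genes had wider intervals than the abundant AP-1 genes, at levels above 26.6% (FOS) and 24% (FOSB) of tested genes against 97.5% for FOSL1 and 97.8% for JUN.

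The small MAF genes and BATF3 were all higher in shBry. MAFF (chr22:38200767-38216511, plus strand) had 73.2, 75.9 and 67.2 CPM in shNC replicates 1, 2 and 3 and 278, 238 and 240.1 CPM in shBry replicates 1, 2 and 3. The lowest shBry value was far above the highest shNC value, with a log2 fold change of 1.80 (95% interval 1.61 to 2.0, edgeR adjusted p = 1.4e-09). MAFK (chr7:1530714-1543043, plus strand) had 35.8, 35.9 and 36.9 CPM in shNC replicates 1, 2 and 3 and 85.2, 80.3 and 90.4 CPM in shBry replicates 1, 2 and 3, and its groups were apart as well, with a log2 fold change of 1.24 (95% interval 1.05 to 1.42, edgeR adjusted p = 4.8e-08). Exons of TMEM184A on the opposite strand cover 18.1% of the exon bases of MAFK. TMEM184A was also called higher, with 11.5 ± 1.94 CPM in shNC and 42 ± 2.80 CPM in shBry (SD, n = 3), with a log2 fold change of 1.87 (95% interval 1.59 to 2.15, edgeR adjusted p = 4.6e-08). The strand setting and overlap mode of the counting are not given in the sources used here, so reads from the shared stretch cannot be told apart. BATF3 (chr1:212686418-212699985, minus strand) had 13.9, 18.9 and 16.9 CPM in shNC replicates 1, 2 and 3 and 28.5, 21.5 and 27.4 CPM in shBry replicates 1, 2 and 3. Its lowest shBry value was close to its highest shNC value, and it had the smallest called rise, with a log2 fold change of 0.64 (95% interval 0.33 to 0.95, edgeR adjusted p = 0.002). Without shBry replicate 1 the log2 fold change of BATF3 was 0.56 and without shNC replicate 1 it was 0.52, both under the fold change limit.

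**Figure D2:**
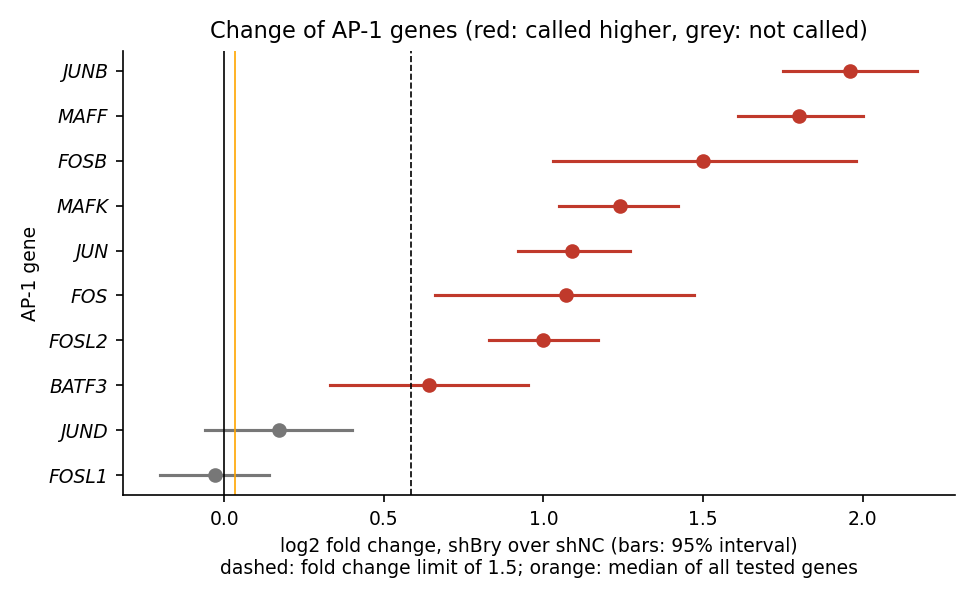
log2 fold change of shBry over shNC for each AP-1 gene (points) with its 95% interval (bars), beside the fold change limit of 1.5 (dashed line) and the median of all tested genes (orange line). JUNB and MAFF lie highest, the interval of BATF3 crosses the fold change limit, and the intervals of JUND and FOSL1 include 0.

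Replicates of one group were close for most AP-1 genes. The coefficient of variation lay between 3.96% (FOSL2) and 14.7% (BATF3) in shBry, and between 1.69% (MAFK) and 19.3% (FOSB) in shNC. Within shBry, replicate 2 had the lowest value for 7 of the 10 genes and the highest for FOS, FOSB and FOSL2. Within shNC, replicate 3 had the lowest value for 6 of the 10. With each library left out in turn, 7 of the 8 called genes were called in all 6 fits, and their log2 fold changes lay between 0.92 (FOSL2) and 2.0 (JUNB).

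Levels were compared between genes as CPM per kilobase of joined exons. In shNC the order was FOSL1 (201 ± 8.71 CPM per kb, SD, n = 3), JUN (74.7 ± 4.05), JUNB (54.5 ± 6.69), JUND (34.4 ± 4.87), FOSL2 (20.4 ± 1.27), MAFF (12.8 ± 0.795), MAFK (8.12 ± 0.137), BATF3 (6.11 ± 0.924), FOS (0.854 ± 0.0251) and FOSB (0.325 ± 0.0627). Neighbours in this order did not overlap across the 3 libraries. In shBry, JUNB (212 ± 12.7 CPM per kb) stood beside FOSL1 (197 ± 12.4) with overlapping values, followed by JUN (159 ± 11.2). MAFF (44.9 ± 3.96), FOSL2 (40.8 ± 1.62) and JUND (38.8 ± 2.72) came next, and FOSL2 and JUND overlapped. MAFK (19.1 ± 1.14), BATF3 (9.51 ± 1.40), FOS (1.79 ± 0.245) and FOSB (0.922 ± 0.135) were again last. The place of MAFF and BATF3 depends on the length used, because their joined exons (5615 and 2713 bases) are far longer than their principal transcripts (2490 and 980 bases). With the latter, MAFF had 101 and BATF3 26.3 CPM per kb in shBry.

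On this scale the JUN family total was 172, 173 and 146 CPM per kb in the 3 shNC libraries and 432, 384 and 413 in the 3 shBry libraries. The FOS family total was 229, 228 and 212 in shNC and 252, 231.1 and 239 in shBry. The ratio of JUN family to FOS family mRNA was 0.732 ± 0.0382 in shNC and 1.70 ± 0.0334 in shBry (SD, n = 3, exact 2-sided permutation test over libraries, p = 0.1, the smallest that 3 against 3 allows). FOS family mRNA was thus in excess in each control library and JUN family mRNA in each shBry library.

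The make-up of each family differed between the groups in the same way in all libraries. JUNB mRNA was 33.8, 33.9 and 32.1% of the family total in shNC and 50.6, 51.3 and 53.1% in shBry, a difference of 18.4 percentage points between the means. JUN was 45.2, 44 and 48.1% of the family total in shNC and 39.8, 39.4 and 37.5% in shBry, and JUND was 21, 22.1 and 19.8% of the family total in shNC and 9.57, 9.35 and 9.48% in shBry. JUNB was therefore the largest part of the JUN family in each shBry library and JUN the largest in each shNC library. FOSL1 was 90.1, 90.4 and 90.4% of the family total in shNC and 83.5, 80.4 and 81.8% in shBry, and FOSL2 was 9.39, 9.07 and 8.99% of the family total in shNC and 15.5, 18.3 and 17.1% in shBry. FOSL1 remained the largest part of the FOS family in every library. FOS and FOSB together stayed small, with means of 0.384% and 0.147% in shNC and 0.747% and 0.383% in shBry. For each of the 7 shares the groups did not overlap, and the exact 2-sided permutation test over libraries gave p = 0.1 (0.1 after Benjamini-Hochberg adjustment over the 7 shares), which is the smallest p of this design, so that none could reach 0.05. Without scaling by length, JUN held 55.2% and JUNB 37.7% of JUN family counts in shBry, so the order of JUN and JUNB within shBry rests on the length scaling, whereas the direction of each difference between the groups does not.

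**Figure D3:**
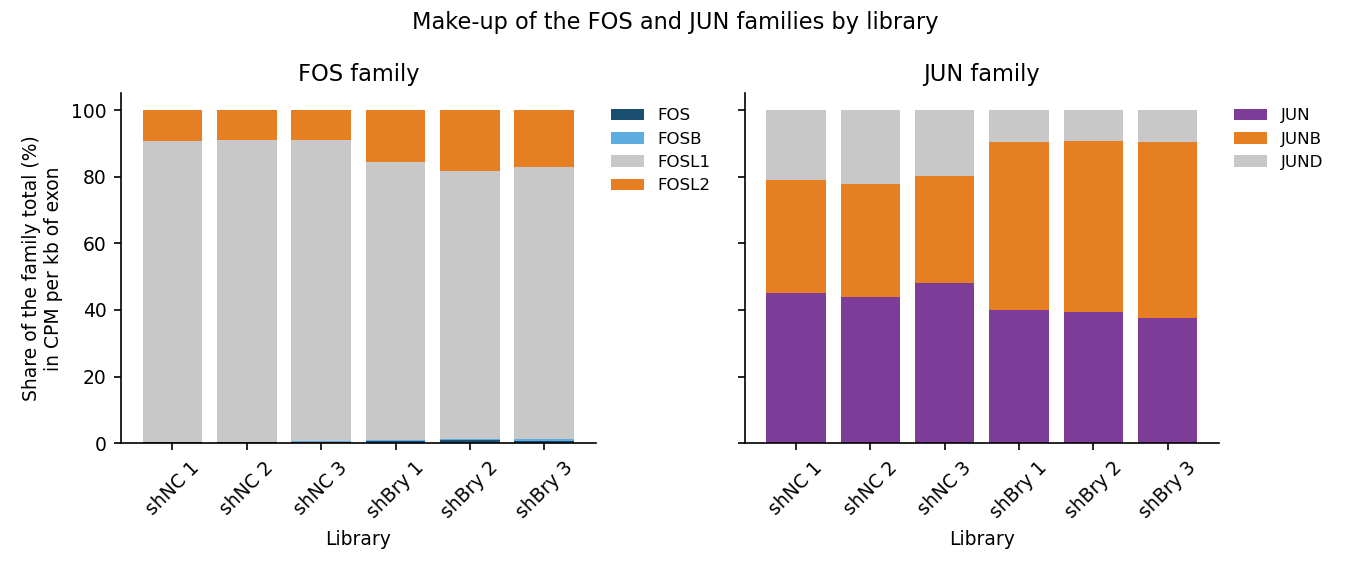
Share of each gene in the CPM per kb of its family, as stacked bars from 0 to 100% for the 3 shNC and 3 shBry libraries. FOSL2 takes a larger and FOSL1 a smaller part of the FOS family in shBry (means 17% and 81.9%), and JUNB takes 51.6% of the JUN family in shBry against 33.3% in shNC.

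The AP-1 transcripts differed in a sequence feature that the choice of genes did not use. Messages of immediate-early genes are known to be short-lived, in part through AU-rich elements in the 3′ untranslated region. In the principal transcript of GENCODE 29, the pentamer ATTTA occurred 9 times in the 3′ untranslated region of FOSL2, 5 times in FOS and in MAFK, 4 times in MAFF, 3 times in JUN and in FOSB, 2 times in JUNB and 1 time each in FOSL1, JUND and BATF3. The median over 12228 tested coding genes was 2. FOS reached its count in 806 bases and FOSL2 in 4864 bases, whereas the median length was 1111 bases. The longer motif TATTTAT, which contains ATTTA, was present in 8 of the 10 genes and in 33.2% of the tested coding genes, and JUNB and BATF3 had none. It was thus found in both genes that were not called as well as in 6 of the 8 that rose. The lifetime of these mRNAs was not measured here.

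By pattern over the 6 libraries, the genes most like JUNB, the member with the largest change, were ZMIZ2, ZFP36 and CERCAM. ZFP36 encodes tristetraprolin, which binds AU-rich elements. The Pearson correlation of log2 CPM with JUNB was 0.9996 for ZMIZ2, 0.9996 for ZFP36 and 0.9994 for CERCAM, and their log2 fold changes were 0.71, 1.27 and 0.99. As the 6 points fall into 2 groups of 3, a difference between the groups contributes to every such correlation, and 386 genes had a correlation above 0.99.

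Dimer partners of the AP-1 and small MAF proteins that passed the test were all higher in shBry. Of 17 further bZIP genes, 15 were tested, 7 were called higher in shBry, against the background of 17.1%, and 8 were not called, with a median log2 fold change of 0.58. This list too was written with earlier results of these data known, so its share is no test of the list. ATF3, a stress-induced factor that pairs with JUN proteins, rose by 3.05 on the log2 scale (edgeR adjusted p = 2.4e-11), with 11.6 ± 0.411 CPM in shNC and 95.7 ± 7.78 CPM in shBry (SD, n = 3, here and for the genes below). Its values were 12.1, 11.4 and 11.3 CPM in shNC replicates 1, 2 and 3 and 105, 90.8 and 91.7 CPM in shBry replicates 1, 2 and 3. JDP2, which encodes a JUN dimerization protein that represses AP-1 sites, rose by 1.46 on the log2 scale (edgeR adjusted p = 3.1e-08), with 24.1 ± 1.61 CPM in shNC and 66.4 ± 4.45 CPM in shBry. NFE2L1, a CNC partner of the small MAF proteins, rose by 1.30 on the log2 scale (edgeR adjusted p = 6.4e-09), with 523 ± 17.1 CPM in shNC and 1285 ± 42.5 CPM in shBry, and MAFG, the third small MAF gene, rose by 0.92 on the log2 scale (edgeR adjusted p = 5.1e-07), with 99.5 ± 4.58 CPM in shNC and 188 ± 12.1 CPM in shBry. All of the small MAF genes were thus called higher. The others called higher were NRL, NFE2L2, which encodes NRF2, and BACH1, with log2 fold changes of 0.95, 0.72 and 0.65. NRL was not called without shBry replicate 3 or shNC replicate 1, and BACH1 was not called without shBry replicate 2 (log2 fold change 0.49). MAF had too few counts to be tested. NFE2L3, BATF, BATF2, ATF7, MAFA and NFE2 did not pass the test, and ATF2 and BACH2 had log2 fold changes of 0.52 and 0.58, under the fold change limit. BACH2 was called without shBry replicate 3 or shNC replicate 3.

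Few mRNAs of the MAP kinases that act on AP-1 were called, at a share no larger than over all genes. Of 22 tested kinase genes of the JNK, ERK and p38 cascades, none was called higher and 3 were called lower in shBry (13.6% of the list, against 15.2% of all tested genes called lower and 32.4% called in either direction). For these 22 genes the median log2 fold change was -0.14. MAP3K11, an upstream kinase of the JNK branch, fell by 1.01 on the log2 scale (edgeR adjusted p = 2.7e-07), with 151 ± 11.2 CPM in shNC and 75.2 ± 3.36 CPM in shBry. MAPK3, which encodes ERK1, fell by 0.78 on the log2 scale (edgeR adjusted p = 2.4e-06), with 125 ± 6.61 CPM in shNC and 72.5 ± 3.39 CPM in shBry. MAP2K6, a kinase of p38, had 3.48, 2.84 and 3.11 CPM in shNC replicates 1, 2 and 3 and 0.377, 0.253 and 0.177 CPM in shBry replicates 1, 2 and 3, and fell with a log2 fold change of -3.55 (edgeR adjusted p = 8.3e-07) from few counts (between 4 and 7 per shBry library). The JNK genes MAPK8 and MAPK9 had log2 fold changes of 0.19 and -0.37, and neither was called. Without the fold change limit, 10 kinase genes passed, 8 lower and 2 higher, where 53.3% of all tested genes passed, 25.3% lower and 28.0% higher. Without shNC replicate 3, 5 kinase genes were called lower, with MAPK7 (-0.64) and RPS6KA1 (-1.84) added. MAPK7 was also called without shBry replicate 1, and RPS6KA1 without shNC replicate 2. RPS6KA1 had 8.89 CPM in shNC replicate 1 and at most 2.04 CPM in every other library. Both fits that called RPS6KA1 kept shNC replicate 1. Leaving out single libraries gave RPS6KA1 log2 fold changes from -1.84 up to 0.33, so that its direction did not hold in every fit. Kinase activity was not measured by these data.

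Of 12 genes that control the transcription or turnover of AP-1 proteins, 2 were called higher, 2 lower and 8 were not called. This share of 33.3% called is near the 32.4% of all tested genes and is not a result about the list. Its median log2 fold change was 0.17. TRIB1, an adaptor of the COP1 ubiquitin ligase, rose by 1.0 on the log2 scale (edgeR adjusted p = 1.6e-05), with 16.7 ± 0.868 CPM in shNC and 33.5 ± 5.17 CPM in shBry. ITCH, a ubiquitin ligase that acts on JUN and JUNB, rose by 0.76 on the log2 scale (edgeR adjusted p = 5.7e-05), with 61.4 ± 6.42 CPM in shNC and 104 ± 15.7 CPM in shBry. MRTFB (listed as MKL2), a coactivator of SRF, fell by 0.82 on the log2 scale (edgeR adjusted p = 0.0017), with 15.3 ± 1.94 CPM in shNC and 8.58 ± 2.43 CPM in shBry. USP28, a deubiquitinase that opposes FBXW7, fell by 0.63 on the log2 scale (edgeR adjusted p = 2.9e-04), with 29.5 ± 1.27 CPM in shNC and 19 ± 1.48 CPM in shBry, and it dropped under the fold change limit without shBry replicate 2. SRF itself, which binds the FOS promoter, had a log2 fold change of 0.36 and was not called. ELK4 was called higher only without shBry replicate 1.

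Most genes on a list of widely described AP-1 targets were called higher in shBry. Of 28 listed genes 25 were tested, 15 were called higher, 2 lower and 8 were not called, against 32.4% called and 17.1% called higher over all genes. The median log2 fold change was 0.76. MMP3, MMP10 and IL6, all called higher, had 7, 0 and 7 counts in shNC replicate 3 and passed the filter through their shBry counts. With at least 10 counts required in every library, 22 genes were tested, 12 were called higher and 2 lower. CXCL8, which encodes interleukin 8, and IL6 rose most. CXCL8 rose by 7.44 on the log2 scale (edgeR adjusted p = 1.9e-14), with 1.71 ± 0.292 CPM in shNC and 297 ± 11.3 CPM in shBry. IL6 rose by 6.81 on the log2 scale (edgeR adjusted p = 2.3e-12), with 0.427 ± 0.0667 CPM in shNC and 48.8 ± 5.0 CPM in shBry. Its shNC values came from few counts (between 7 and 10 per library). VEGFA, the angiogenic growth factor, rose by 2.60 on the log2 scale (edgeR adjusted p = 1.4e-11), with 59.1 ± 2.41 CPM in shNC and 357 ± 16.7 CPM in shBry. The collagenase gene MMP1, a classical AP-1 target named here after its values were seen, rose by 3.43 on the log2 scale (edgeR adjusted p = 3.5e-11), with 6.14 ± 0.638 CPM in shNC and 66 ± 4.71 CPM in shBry. The 2 genes called lower were CCL2 and LAMA3. CCL2, a monocyte chemokine, fell by 1.61 on the log2 scale (edgeR adjusted p = 1.8e-04), with 3.33 ± 0.419 CPM in shNC and 1.08 ± 0.333 CPM in shBry. LAMA3, a laminin chain of epithelial basement membrane, fell by 0.69 on the log2 scale (edgeR adjusted p = 0.0015), with 18.6 ± 0.804 CPM in shNC and 11.5 ± 2.43 CPM in shBry, and it was under the fold change limit without shBry replicate 3 (log2 fold change -0.54). MMP3, called higher from few counts, was not called without shBry replicate 3, shNC replicate 2 or shNC replicate 3. CCND1, FN1 and HMGA1 had log2 fold changes of 0.14, -0.04 and 0.01 and did not pass the test. CD44 and AXL, also counted above as mesenchymal markers, were not called. Many of these genes also respond to NF-kappa-B or to stress factors, the list was written with earlier results of these data known, and whether AP-1 accounts for any of these changes was not tested.

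**Figure D4:**
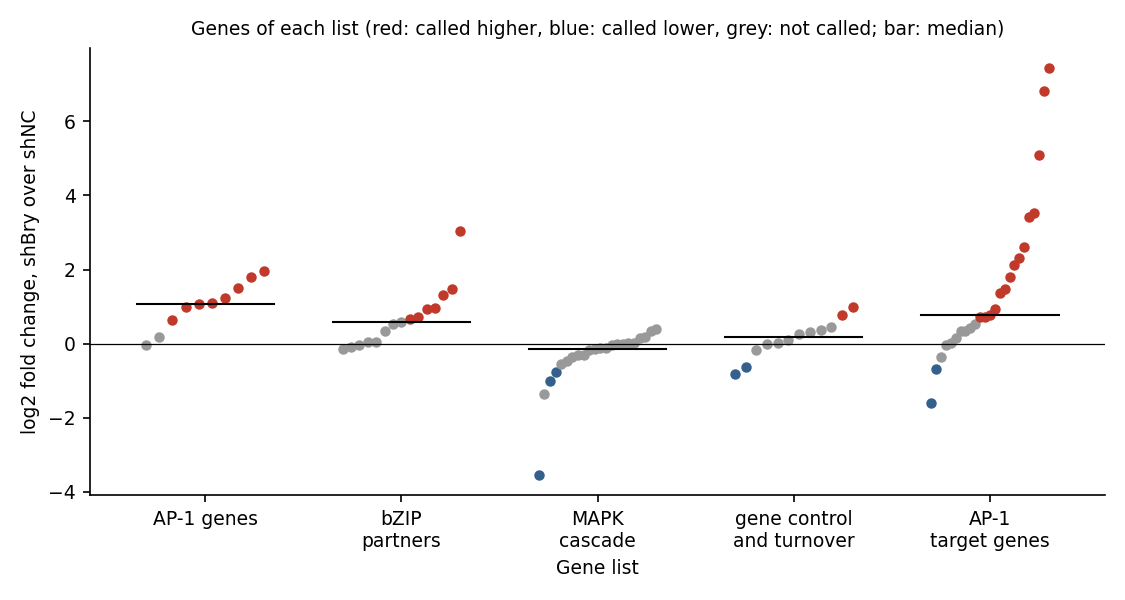
log2 fold change of shBry over shNC for each tested gene of the AP-1 genes, their bZIP partners, the MAPK cascade, the genes of transcriptional control and turnover, and AP-1 target genes (points), with each median as a bar. Genes called higher (red) make up most AP-1 and target genes, against 17.1% of all tested genes. No kinase gene was called higher and 3 of 22 were called lower (blue), 13.6% beside 15.2% of all tested genes.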

How the data were processed

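The authors sequenced 3 libraries each of the shBry and shNC lines of MDA-MB-231 on an Illumina instrument. The authors deposited raw counts, whole numbers of reads per gene symbol, without normalization. The submitters' processing notes name HISAT2 2.0.4, HTSeq and GRCh38. The annotation, strand setting and counting mode are not given in the sources used here. Total counts per library lay between 19319411 and 22985371.

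Genes with low counts were removed (filterByExpr, minimum count 10), TMM scaled the libraries, and edgeR 4.0.16 (R 4.3.3) compared the groups by its quasi-likelihood test over 15277 genes, with Benjamini-Hochberg adjustment. The paper gives limits on p and fold change for these libraries and ties no test to them, so an adjusted p below 0.05 and its fold change limit of 1.5 were used. Standard errors are the log2 fold change divided by the square root of F, and 95% intervals use the moderated degrees of freedom. Gene models are from GENCODE 29, matched by symbol. Promoters are from RefSeq on GRCh38.p14, as 300 bases per start. The edgeR test was run on simulated counts with few changed genes and the same spread setting for every gene. These data differ in both, so that run is no check of the calls here.

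The 10 genes and the other lists were chosen with earlier results of these data known. All 10 were named, with, in each other list, up to 4 genes called higher and 4 called lower by smallest adjusted p, and the 3 genes most correlated with the member of largest called change. A gene that this rule names is not reported here. Other genes are named as list members whose call bears on a count. Alternatives were no TMM, DESeq2 1.42.0, limma-voom (limma 3.58.1), other filters and fold change limits, a block for the replicate number, leaving out single libraries, and other length scalings.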

Additional observations from a re-analysis of the deposited data

How the results depend on the processing

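The 8 AP-1 genes called higher numbered 8 also without TMM, with DESeq2, with limma-voom, under both other filters and without a fold change limit, 6 with a fold change limit of 2, and 7 or 8 with each library left out. FOSL1 and JUND were not called in any of these fits. No called AP-1 gene changed direction. The replicate numbers gave no sign of pairing. Same-numbered libraries had correlations of their deviations of 0.16, -0.07 and -0.02, and differently numbered ones lay between -0.19 and 0.19. With 3 libraries a group, such values cannot show that no pairing exists. With the replicate number as a block, 8 AP-1 genes were called and no count of calls of the 5 gene lists changed. With a fold change limit of 2, 3 bZIP partners and 1 gene of control and turnover were called (15.0% of all tested genes). Without a limit, 10 kinase genes and 7 genes of control and turnover passed (53.3% of all tested genes). With each library left out, between 3 and 5 kinase genes were called, 5 of them without shNC replicate 3. Without length scaling, the differences in family share (shBry minus shNC, percentage points) were 0.415 for FOSB, -16.5 for FOSL1, 15.7 for FOSL2, 14.6 for JUNB and -7.87 for JUND. With principal transcript lengths, chosen after seeing the data, they were 0.486 for FOS and 0.310 for FOSB. These changes follow from the lengths used, and no share difference changed sign. Depth limits FOS and FOSB most, with between 34 and 152 counts per library.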
